A study of Mus musculus with 8 samples.

Results

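The 8 transcription factor genes described here, Gsx2, Dlx1, Dlx2, Dlx5, Dlx6, Sp8, Sp9 and Six3, belong to the regulatory cascade that leads from subpallial progenitors to GABAergic neurons of the striatum, and they were picked by name out of 15705 genes in the deposited table. All 8 were present and all 8 passed the filter on low values. The samples were lateral ganglionic eminences (LGE, the part of the embryonic subpallium from which projection neurons of the striatum arise) dissected from mouse embryos at E18.5. The 4 control libraries came from embryos with Isl1 flx/flx and no Cre, and the 4 conditional knockout (cKO) libraries from embryos with Dlx1-Cre; Isl1 flx/flx, so that floxed Isl1 is shared by both groups and Dlx1-cre marks the cKO alone. The embryos came from crosses of Dlx1-cre; Isl1flx/+ with Isl1 flx/flx animals, and neither litter nor sex is known here. The p-values measure the spread between these embryos that was left after the authors adjusted the values. Cre is driven from Dlx1, which is itself one of the 8 genes, and the sources used here do not say how the Dlx1-cre allele was built. This bears on Dlx1 and its neighbours. For these and for every other gene compared, the presence of that allele and the deletion of Isl1 cannot be told apart.

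GSX2 is a homeodomain protein of dividing progenitors of the LGE and stands near the top of the cascade. It acts upstream of the DLX homeodomain proteins, of which DLX1 and DLX2 appear in progenitors and DLX5 and DLX6 as cells leave the cell cycle. The zinc finger proteins SP8 and SP9 and the homeodomain protein SIX3 come later. SP9 and SIX3 are needed for striatopallidal neurons, which form the indirect pathway of the basal ganglia, and SP8 is prominent in the dorsal LGE, which supplies interneurons to the olfactory bulb. The Dlx genes lie in convergent pairs that share enhancers, Dlx1 with Dlx2 and Dlx5 with Dlx6.

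The pairs are related in sequence, which raises the question of whether short reads can tell the genes apart. The stretch below codes for the third helix of the homeodomain, which contacts DNA. It spans 42 bases of the GENCODE transcripts (GRCm38), 5′ to 3′. Capitals mark bases that all 4 Dlx genes have in common, 28 of 42, and in Gsx2 and Six3 those of the 28 that they hold as well.
Dlx1, chr2:71532264-71532305, plus strand, exon 3: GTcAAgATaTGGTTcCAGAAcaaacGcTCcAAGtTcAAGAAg
Dlx2, chr2:71544883-71544924, minus strand, exon 3: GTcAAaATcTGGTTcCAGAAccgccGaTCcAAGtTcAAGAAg
Dlx5, chr6:6878447-6878488, minus strand, exon 3: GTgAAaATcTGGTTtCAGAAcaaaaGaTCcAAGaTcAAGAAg
Dlx6, chr6:6867041-6867082, plus strand, exon 3: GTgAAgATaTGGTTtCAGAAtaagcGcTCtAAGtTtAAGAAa
Gsx2, chr5:75077127-75077168, plus strand, exon 2: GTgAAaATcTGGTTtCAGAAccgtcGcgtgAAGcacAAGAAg
Six3, chr17:85621990-85622031, plus strand, exon 1: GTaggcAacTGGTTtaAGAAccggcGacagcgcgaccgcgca
Dlx2 has the base of Dlx1 at 36 of the 42 positions, Dlx5 and Dlx6 at 35 each, Gsx2 at 30 and Six3 at 16. Even in their whole transcripts, no 2 of the 8 genes shared an identical run longer than 44 bases, the longest being between Sp8 and Sp9 and between Dlx6 and Six3. Reads were 85 bases long, per the labels' protocols, so an error-free read lying wholly within a transcript of one member does not match another member exactly.

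The values are reads per gene that the authors scaled, adjusted and rounded. Their library sums, between 23732455 and 24456923, follow from that scaling, and the sequencing depth is unknown. Isl1 was higher in the libraries labelled cKO, at 4930 to 5971 against 3517 to 4186, and this whole-gene value does not check the labels, since no source used here names the exons that Cre removes. Below, cKO means the libraries so labelled. Genes of striatal projection neurons were abundant, with 10 of them summing to between 653 and 738 RPKM (reads relative to gene length and library size) per library, while 11 markers of pallial neurons summed to between 2.21 and 22.6. The pallial sum was lowest in control replicate 3 (2.21) and cKO replicate 4 (8.17). The 12 markers of microglia had sums of 52.1 to 59.4 in the controls and 83.6 to 99.6 in the cKO, and 10 of the 12 rose. Of 6 erythroid genes 3 rose, among them Hba-a1 and Hba-a2, whose means and SDs were identical and which are not separate measurements. None rose without those 2 low-pallial libraries. Of 7 astrocyte, 6 oligodendrocyte and 8 vascular genes none passed in either direction, and of 9 genes of neurons from the medial ganglionic eminence 1 rose and 2 fell. Of the 11 pallial markers 1 rose, and of 6 septal genes 1 fell. No marker was at 0 in all libraries. The part of other cells in the results on the 8 factors was not tested. In these bulk samples, fewer cells of a type and less RNA per cell cannot be told apart.

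By level per length, the cascade in the control LGE was led by Dlx1, Dlx2, Sp9 and Dlx5, with Gsx2 the least abundant. Dlx1 had 149 ± 7.03 RPKM (SD, n = 4), which placed it at rank 312 of 15705 genes. Dlx2 followed with 70.9 ± 5.78, Sp9 with 64.5 ± 3.63 and Dlx5 with 55.7 ± 0.564 RPKM. The libraries of Dlx2 (66.7 to 79.4) and Sp9 (60.9 to 69.1) overlapped, whereas those of Sp9 and Dlx5 (55.3 to 56.5) did not. Six3 at 35.1 ± 2.22 and Dlx6 at 33.8 ± 1.89 RPKM overlapped with each other and lay below Dlx5 in every control library. Sp8 (12.1 ± 1.25) and Gsx2 (6.38 ± 0.529) came last, with no overlap between them, and Gsx2 stood at rank 8642 of the table. In the cKO the order differed only in that Dlx6 (42.2 ± 4.07 RPKM) had a higher mean than Six3 (40.1 ± 1.88), a pair whose libraries overlapped in both groups.

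**Figure D1:**
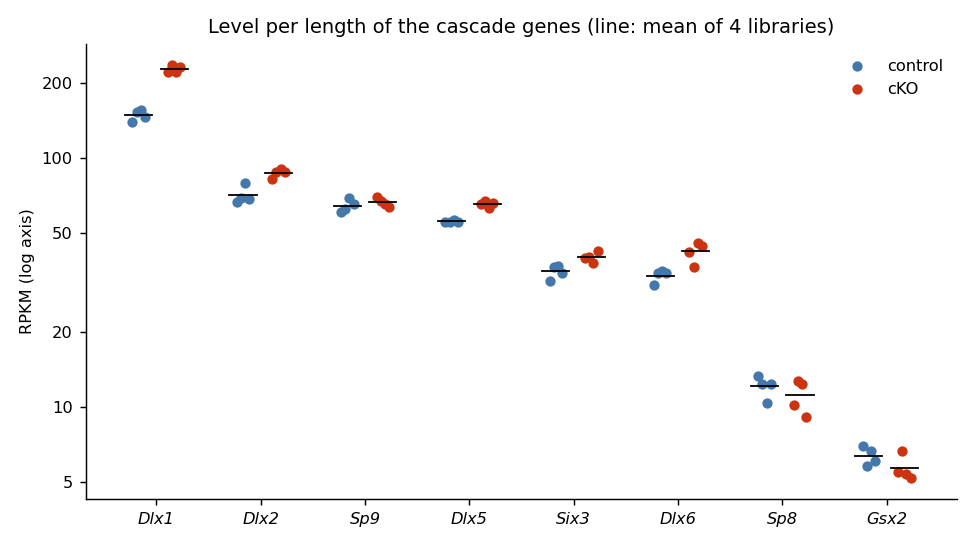
Level per length of the 8 factors, in RPKM on a log axis, with 1 point per library, controls in blue, cKO in red and a line at the mean of 4 libraries. Dlx1 lies above every other factor, at 140 to 156 RPKM in the controls and 221 to 237 in the cKO, and Gsx2 lies lowest.

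Of the 8 factors, 4 rose in the cKO, all of them Dlx genes, and none fell. In the comparison across all genes (limma on log2(value + 1), Benjamini-Hochberg adjusted p under 0.05), 6.66% of 15698 genes were called, 2.87% as risen and 3.78% as fallen. The same 4 genes were higher in the authors' deposited table, in which 2.74% of genes were higher and 3.81% lower at the same threshold. The cKO libraries did not overlap the control libraries in 5 of the 8, the Dlx genes and Six3, and were higher in all 5, against 12.7% of tested genes without overlap in either direction and 6.37% that were higher. The median log2 fold change of the 8 was 0.22, and that of all tested genes 0.01.

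**Figure D2:**
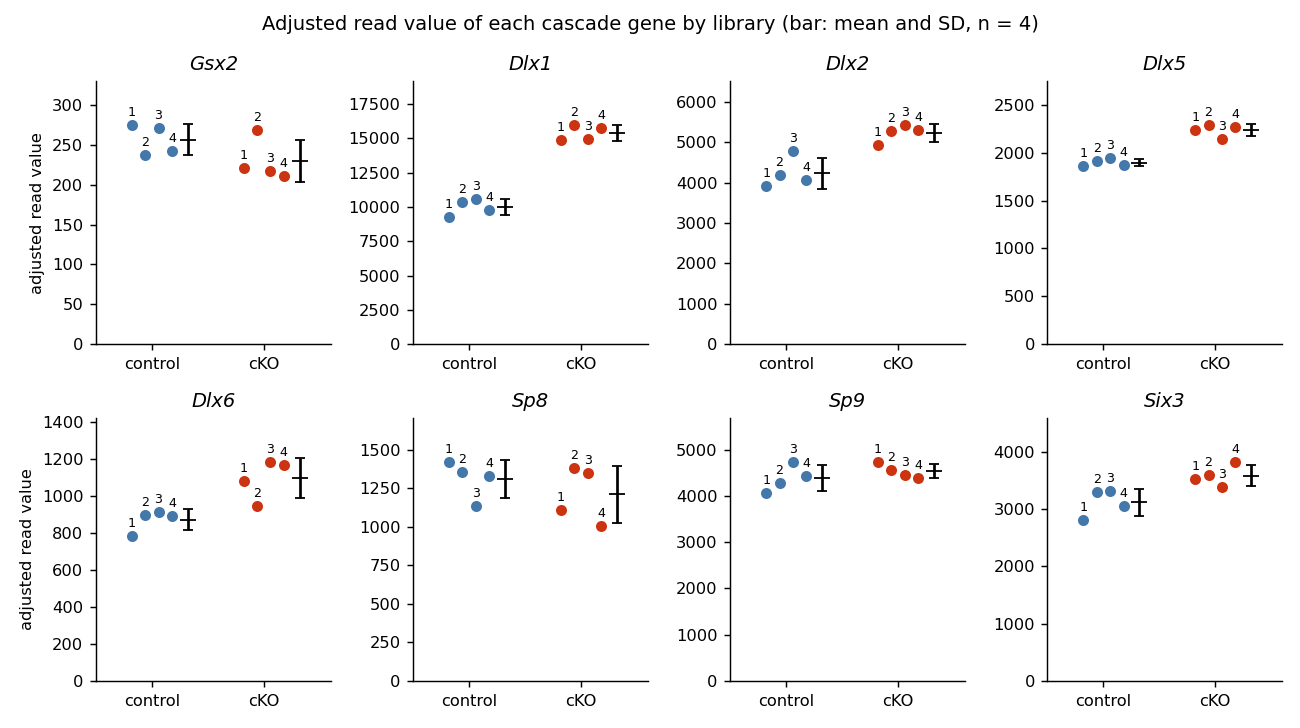
Adjusted read value of each factor in each library, with points numbered by replicate and a bar for the mean and SD of 4 libraries, each axis starting at 0. The cKO points of Dlx1, Dlx2, Dlx5, Dlx6 and Six3 lie above all control points, and those of Gsx2, Sp8 and Sp9 mix with them.

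Gsx2 (chromosome 5, 75075601 to 75077893, plus strand, GRCm38), the progenitor factor, gave no call. Its values were 275, 237, 271 and 242 in the controls and 221, 269, 217 and 211 in the cKO. Of the cKO libraries, 3 lay below every control and replicate 2 lay among them. On the log2(value + 1) scale the fold change was -0.16 ± 0.09 (SE), with a limma adjusted p of 0.4 and a 95% interval from -0.37 to 0.04. Without control replicate 3 and cKO replicate 4 it was -0.10. Among 12 other progenitor factors, none passed in either direction, with a median log2 fold change of 0.03. The related Gsx1 was low, with means of 76.3 and 89 (log2 fold change 0.22 ± 0.12). Of 10 proliferation genes none passed either, with a median of -0.00447.

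Dlx1 (chromosome 2, 71528113 to 71533981, plus strand), the DLX gene of progenitors with the highest level, had the largest estimated change of the 8. Its values were 9245, 10364, 10558 and 9741 in the controls and 14881, 15975, 14922 and 15760 in the cKO. The groups lay far apart, with the lowest cKO library above the highest control by several times the SD within either group (599.7 and 564.8). The rise was 1.54-fold, a log2 fold change of 0.63 ± 0.05 (limma adjusted p = 8.51e-06), and was 0.64 without control replicate 3 and cKO replicate 4. By p, Dlx1 ranked 50 among all tested genes.

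Dlx2 (chromosome 2, 71543408 to 71546754, minus strand), its partner, ends 9.43 kb from Dlx1. It had values of 3913, 4177, 4788 and 4065 in the controls and 4920, 5287, 5429 and 5310 in the cKO. The groups did not overlap, but control replicate 3 came close to the lowest cKO library. Its log2 fold change was 0.31 ± 0.06, or 1.24-fold (limma adjusted p = 0.00731), and 0.36 without control replicate 3 and cKO replicate 4.

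Dlx5 (chromosome 6, 6877805 to 6882085, minus strand), a factor of cells that leave the cell cycle, varied little between libraries. Its values were 1860, 1908, 1943 and 1874 in the controls and 2239, 2290, 2142 and 2267 in the cKO, with a coefficient of variation of 1.96% and 2.91%. Every cKO library lay above every control. The difference was small but exceeded that spread, at 1.18-fold or 0.24 ± 0.04 in log2 (limma adjusted p = 0.0017), and was 0.24 without control replicate 3 and cKO replicate 4.

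Dlx6 (chromosome 6, 6863334 to 6868568, plus strand), 9.24 kb from Dlx5, was at 787, 900, 915 and 891 in the controls and at 1084, 950, 1188 and 1167 in the cKO. The groups did not overlap, and cKO replicate 2 was nearest to the controls. Dlx6 rose 1.26-fold, or 0.33 ± 0.07 in log2 (limma adjusted p = 0.0219). The call was lost without control replicate 1 (adjusted p = 0.0553), cKO replicate 3 (0.0626) or cKO replicate 4 (0.0752), without control replicate 3 and cKO replicate 4 together (0.106), and in limma without the mean trend (0.0797). The calls of Dlx1, Dlx2 and Dlx5 held in each of these fits, that of Dlx2 only narrowly in limma without the mean trend (adjusted p = 0.0487).

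Within the Dlx genes, Dlx1 made up a larger share in every cKO library than in any control. Summed over the 4 genes, the level was between 293 and 327 RPKM in the controls and between 411 and 429.9 RPKM in the cKO, and Dlx1 made up 47.7% to 49% of that sum in the controls and 52.7% to 55.3% in the cKO. The log2 ratio of Dlx1 to Dlx2 in RPKM, which does not depend on the scaling of a library, was 1.07, 1.14, 0.97 and 1.09 in the controls and 1.43, 1.43, 1.29 and 1.40 in the cKO. These ratios did not overlap, with a difference of 0.32, and the exact two-sided permutation test over 70 assignments gave p = 0.0286, the smallest that 4 against 4 libraries allow. Adjusted over the 4 ratios that were compared, the exact permutation p was 0.114, which a single ratio at the smallest p cannot pass. The log2 ratio of Dlx5 to Dlx6 was 0.72 ± 0.08 in the controls and 0.63 ± 0.18 in the cKO (SD, n = 4), and the groups overlapped (exact permutation p = 0.371).

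The antisense transcript that spans Dlx1 and the gene upstream of it rose as well. Dlx1as, the antisense transcript (chromosome 2, 71516454 to 71537891, minus strand), had values of 4432, 3789, 4894 and 4287 in the controls and 11010, 10276, 9795 and 9845 in the cKO. Metap1d, a methionine aminopeptidase gene upstream of Dlx1 (71453276 to 71525194, plus strand), had 344, 333, 354 and 326 against 653, 742, 692 and 679. In both genes the highest control lay far below the lowest cKO library, and the log2 fold changes of 1.24 ± 0.07 and 1.02 ± 0.06 stood beside 0.63 for Dlx1 (limma adjusted p of 9.42e-07 and 1.03e-06); the differences between these genes were not tested. In GENCODE, Dlx1as shares 335 exonic bases with Dlx1, 6.21% of the exonic bases of Dlx1 and 20.6% of its own. It shares none there with the exons of Metap1d or Dlx2. The gene models that were counted differ from these. The RPKM columns imply lengths of 2780 bases for Dlx1 and 2793 for Dlx1as, against 5396 and 1630 exonic bases in GENCODE. The overlap of the counted models is therefore unknown. The library kit keeps the strand, but the sources used here do not state whether counting used it, so reads over the shared bases cannot be assigned. The next tested genes outwards did not pass, Hat1 at 0.14 ± 0.06 (limma adjusted p = 0.21) and Itga6 at 0.09 ± 0.09 (0.663). Hat1 passed without control replicate 3 (0.2, adjusted p = 0.029). Sp9, which lies 1.73 Mb from Dlx2 on the same chromosome, did not pass either.

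At the other locus, Dlx6os1, the long non-coding antisense transcript of this pair, was the most abundant of their transcripts by value, with a mean of 12269 ± 807 in the controls and 13952 ± 629.7 in the cKO (SD, n = 4). Its log2 fold change of 0.19 ± 0.05 passed narrowly (limma adjusted p = 0.0488). It did not pass in the authors' deposited table (adjusted p = 0.156), and it passed in 1 of the 8 fits that left out a library, that without control replicate 3; without the other libraries the adjusted p lay between 0.0647 and 0.121. Dlx6os2, a low transcript with means of 50 and 57.5, gave no call. In GENCODE, Dlx6os2 shares 104 exonic bases with Dlx6, and no exonic bases of Dlx6os1 are shared with Dlx5 or Dlx6. The neighbour Sdhaf3, on the side of Dlx5, did not pass (-0.09 ± 0.13), and the gene after it is Tac1, the substance P precursor of striatonigral neurons, at -2.93 ± 0.13 (limma adjusted p = 2.19e-07).

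Across all 8 loci, the nearest tested genes (3 on either side, but fewer at higher coordinates than Sp8) made up 35 genes other than the factors. Of these 7 were called, against 6.66% of all tested genes, and an excess beside the factors was not tested. Beside Dlx1as, Metap1d, Dlx6os1 and Tac1 these were Kit near Gsx2, Prkce near Six3 and Tmem196 near Sp8. The receptor kinase gene Kit was at -0.31 ± 0.07 (limma adjusted p = 0.019) and was lost without cKO replicate 2 (0.0507) or 3 (0.0535) or without the mean trend (0.0547). The kinase gene Prkce was at -0.30 ± 0.06 (limma adjusted p = 0.00957) and was lost without control replicate 3 and cKO replicate 4 together (0.0718) or without the mean trend (0.0562). Tmem196 was at 0.33 ± 0.09 (limma adjusted p = 0.0427) and kept its call in only 1 of the 8 leave-one-out fits, that without control replicate 2. It was also lost without control replicate 3 and cKO replicate 4 together (0.165), in the authors' deposited table (0.0612), on the RPKM columns (0.064), with the replicate block (0.0699) and with the missing direction of variation charged to the model (0.111). Kit lies 497023, Prkce 538483 and Tmem196 1093246 bases from the factor it neighbours.

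**Figure D3:**
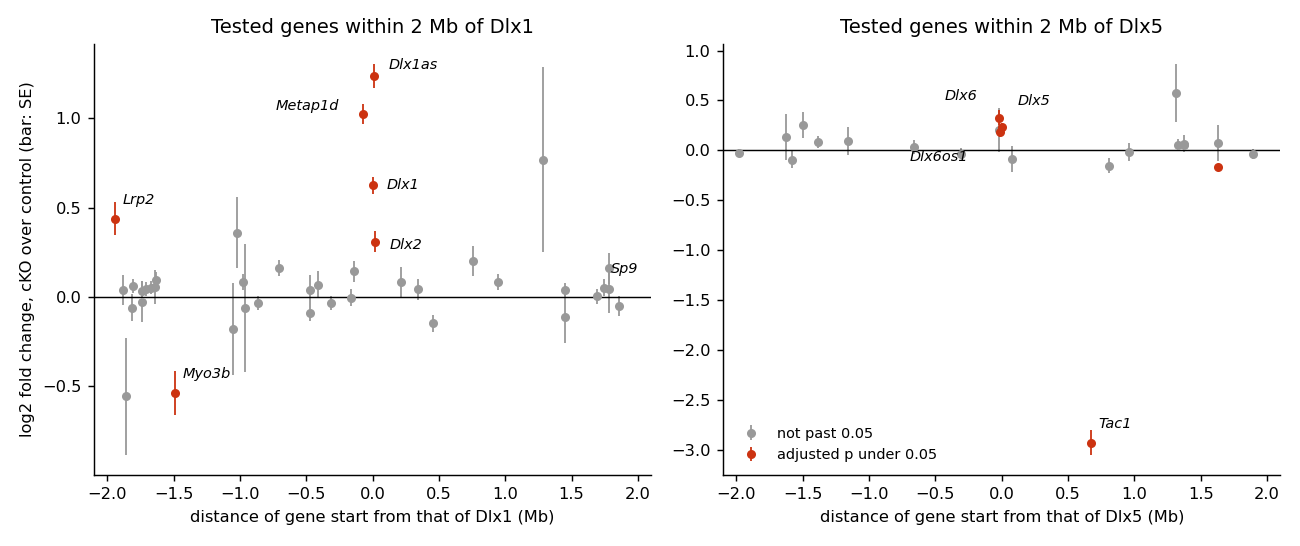
Log2 fold change (cKO over control, bar for the SE) of all tested genes within 2 Mb of the starts of Dlx1 (41 genes) and Dlx5 (23 genes), against the distance of the gene start in Mb, with genes past the threshold in red. Around Dlx1, the called genes Metap1d, Dlx1as, Dlx1 and Dlx2 stand together, with 2 more called genes beyond 1 Mb; around Dlx5, Dlx6os1, whose call was lost in most other fits, is drawn in red with Dlx5, Dlx6, Tac1 and 1 gene beyond 1 Mb; the call of Dlx6 was lost in 5 other fits.

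The promoters of the Dlx1 pair are shown because both genes of the pair rose. Both windows are from RefSeq (GRCm38.p6), run from 250 bases before to 50 after the start of the gene, and are written 5′ to 3′ on the gene's strand, with capitals for the GC box GGGCGG on either strand, the element that Sp family proteins bind. The RefSeq start of Dlx1 lies inside the longer GENCODE gene.
Dlx1, chr2:71529195-71529494, plus strand: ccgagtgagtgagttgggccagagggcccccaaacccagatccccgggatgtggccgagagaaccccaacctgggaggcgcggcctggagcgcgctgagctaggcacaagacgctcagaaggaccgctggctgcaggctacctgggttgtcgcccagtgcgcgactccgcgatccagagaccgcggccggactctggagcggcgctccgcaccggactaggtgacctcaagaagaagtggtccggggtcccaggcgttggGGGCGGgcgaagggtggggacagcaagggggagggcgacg
Dlx2, chr2:71546705-71547004, minus strand: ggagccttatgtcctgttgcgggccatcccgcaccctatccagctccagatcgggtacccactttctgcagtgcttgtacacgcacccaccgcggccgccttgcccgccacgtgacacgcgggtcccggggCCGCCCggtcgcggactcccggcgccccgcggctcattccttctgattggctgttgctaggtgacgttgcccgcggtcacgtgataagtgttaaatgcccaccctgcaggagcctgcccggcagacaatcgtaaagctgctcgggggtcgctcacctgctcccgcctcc
Each window holds 1 match of GGGCGG, as do 35.7% of the 32851 windows of the table at least once, and their GC content is 69.3% and 66.3% against a median of 52.7%. Neither holds TAAT, the core that most homeodomain proteins recognise, on either strand, which 58% of all windows do. The longer core TAATTA, which contains TAAT and reads the same on both strands, is in 5.29% of windows and, among the 6 factors with a window (all but Dlx5 and Dlx6), only in 1 of the 3 windows of Sp8. These letters describe the windows and say nothing of binding.

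Sp8 (chromosome 12, 118846329 to 118852576, plus strand) and Sp9 (chromosome 2, 73271925 to 73284706, plus strand), the paired zinc finger factors of later LGE cells, gave no call. Sp8 had values of 1423, 1355, 1134 and 1328 in the controls and 1108, 1384, 1347 and 1004 in the cKO. Its groups overlapped, with the lowest value of each group in the library lowest in pallial markers. The difference was -0.12 ± 0.10 in log2 (limma adjusted p = 0.587, 95% interval from -0.35 to 0.10), and -0.10 without those 2 libraries. Sp9 had values of 4067, 4287, 4737 and 4432 in the controls and 4742, 4567, 4455 and 4395 in the cKO. The cKO values lay within a few units of the range of the controls. In log2 the difference was 0.05 ± 0.05 (limma adjusted p = 0.611, 95% interval from -0.05 to 0.16), and 0.11 without control replicate 3 and cKO replicate 4. The interval does not reach the estimates of the 4 Dlx genes, but the interval of Dlx5 starts at 0.16. Differences between Sp9 and the Dlx genes were not tested. The log2 ratio of Sp8 to Sp9 in RPKM was -2.42 ± 0.23 and -2.59 ± 0.23 (SD, n = 4; exact permutation p = 0.229).

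Six3 (chromosome 17, 85613608 to 85629302, plus strand), which acts after Sp9 in striatopallidal neurons, lay at the edge of the test. Its values were 2808, 3297, 3311 and 3061 in the controls and 3529, 3587, 3386 and 3829 in the cKO. The groups did not overlap, and cKO replicate 3 was near the highest controls. In log2 the difference was 0.20 ± 0.06, or 1.15-fold, with a limma adjusted p of 0.0589 and a 95% interval from 0.08 to 0.33. It passed without control replicate 2 (adjusted p = 0.046), with median-of-ratios scaling (0.0468) and with the replicate number as a block (0.0367), and it did not pass in the authors' deposited table (0.164). The antisense transcript Six3os1, which shares 106 exonic bases with Six3 in GENCODE, had a log2 fold change of 0.05 ± 0.08 and gave no call. The log2 ratio of Six3 to Sp9 was -0.88 ± 0.08 in the controls and -0.73 ± 0.10 in the cKO (SD, n = 4), with an exact permutation p of 0.0857 and overlapping groups.

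**Figure D4:**
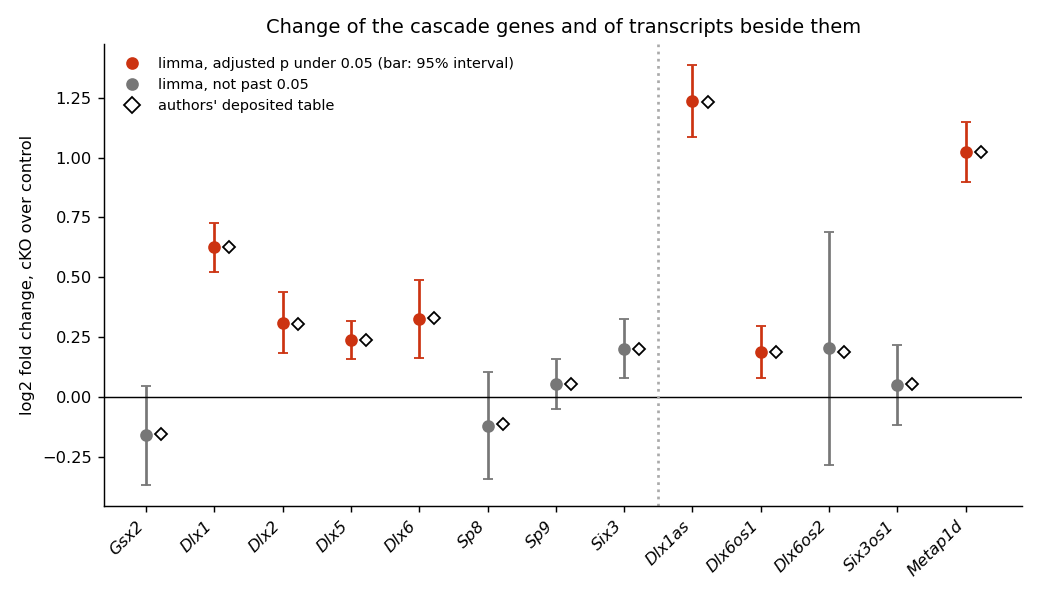
Log2 fold change of the 8 factors and of 5 transcripts beside them, with the 95% interval of the limma fit and the value of the authors' deposited table as an open diamond. The Dlx genes lie above 0, between 0.24 and 0.63, the intervals of Gsx2, Sp8 and Sp9 span 0, and Dlx1as and Metap1d exceed 1; among the red points, the calls of Dlx6 and Dlx6os1 were lost in some other fits.

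Of 10 genes of GABA synthesis and transport or described as downstream of DLX, 1 rose, none fell, and the median log2 fold change was 0.07. This count is near the share over all tested genes, of which 6.66% were called and 2.87% rose. The riser was Pak3, a kinase gene that DLX1 and DLX2 repress in migrating interneurons, with means of 4492 ± 278 and 5781 ± 385 (SD, n = 4) and a log2 fold change of 0.36 ± 0.06 (limma adjusted p = 0.00188). The GABA-synthesising enzyme genes Gad1 (0.08 ± 0.04) and Gad2 (0.04 ± 0.04) gave no call. Of 15 other genes of the same 4 gene families, 11 were tested and none rose or fell, with a median of 0.06. They included Sp3 (0.04 ± 0.04) and Sp4 (0.06 ± 0.04), zinc finger genes with control means of 4022 and 3470.

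Among genes of the neurons in which Sp9 and Six3 act, some rose. Of 7 striatopallidal genes tested, 3 rose and none fell, with a median log2 fold change of 0.22. Adora2a, an adenosine receptor gene, had means of 1724 and 2132 (0.31 ± 0.04, limma adjusted p = 0.000477). The dopamine receptor gene Drd2 (0.20 ± 0.05, 0.0367) and the receptor phosphatase gene Ptprm (0.19 ± 0.05, 0.0382) also rose, but neither passed without control replicate 3 and cKO replicate 4, which left 1 riser. In the authors' deposited table, too, Adora2a passed and neither Drd2 (adjusted p = 0.122) nor Ptprm (0.12) did. Both were also lost with median-of-ratios scaling, on the RPKM columns, without the mean trend and with the missing direction of variation charged to the model. Drd2 was also lost without control replicate 2 or 4 or any 1 cKO library, and Ptprm without any 1 library other than cKO replicate 2 or 3. The enkephalin precursor gene Penk was at 0.02 ± 0.10. Of 10 striatonigral genes, 6 fell and none rose, with a median of -0.69, and beside Tac1 the strongest by p were Slc35d3 (-2.05 ± 0.09), the dynorphin precursor gene Pdyn (-1.77 ± 0.08) and the semaphorin receptor gene Plxnd1 (-1.68 ± 0.10). The dopamine receptor gene Drd1 (-0.20 ± 0.08), Ebf1 (-0.007 ± 0.07), Eya1 (-0.22 ± 0.18) and Sfxn1 (0.08 ± 0.06) gave no call. Of 10 genes shared by both kinds of projection neuron, 5 fell and 1, Meis2, rose, with a median of -0.25. Of 8 other dorsal LGE genes none passed, with a median of -0.000527. Some of these genes were known to have changed when the lists were drawn up.

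**Figure D5:**
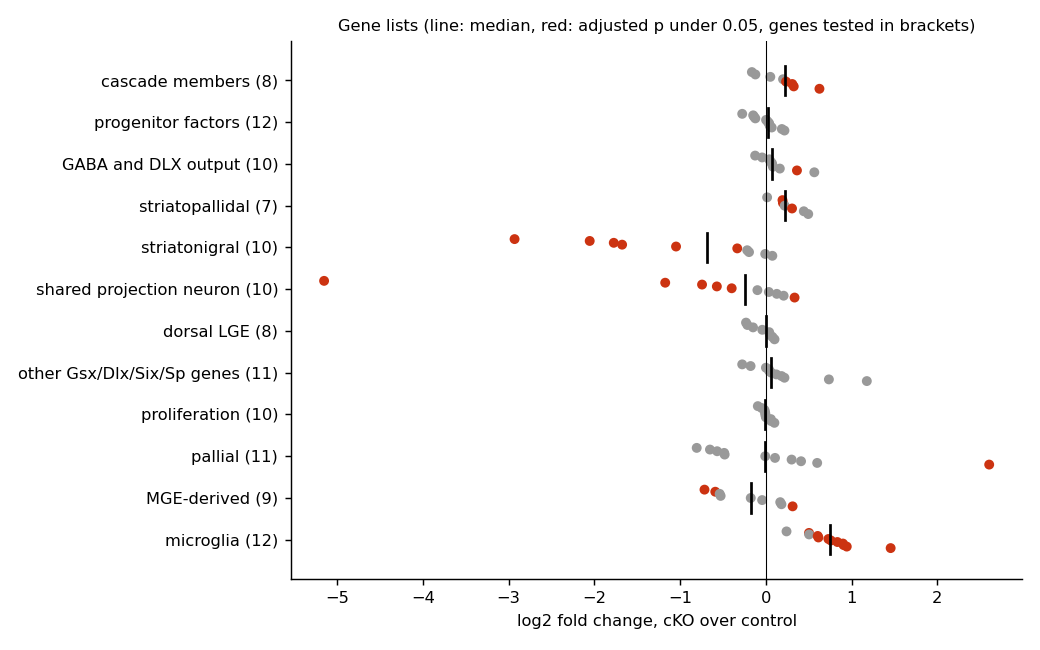
Log2 fold change of each tested gene in the lists described above and in lists of pallial, medial ganglionic eminence and microglial genes, with genes past the threshold in red and a line at the median of a list. The cascade members and the striatopallidal genes have medians of 0.22, the striatonigral genes one of -0.69, and the progenitor, dorsal LGE and proliferation lists hold no red point.

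For each factor the 2 genes with the most similar values over the 8 libraries were found among 8257 genes with a mean of at least 500, by the root mean square difference of log2 values centred on each gene's mean. Nearest to Dlx1 was Zcchc12, a zinc finger transcriptional cofactor gene, at a distance of 0.0493 where the spread of Dlx1 itself was 0.319, followed by Fam196a (0.0677). Their log2 fold changes were 0.58 ± 0.03 and 0.67 ± 0.06. A gene picked by this distance has much the same change as its factor by the way it was picked. Meis2, a TALE homeobox gene of the LGE (0.34 ± 0.05), was nearest to Dlx6 (0.0643) and second to Dlx2 (0.0583), after Arl10 (0.0476). Dlx5 was nearest to Lin7c (0.0336) and Mark1 (0.0337), and Six3 to Ndst3 (0.0285) and Erc2 (0.0347). Sp8 was nearest to Pax6 (0.0737), a homeobox gene of the dorsal LGE, at values of 782, 677, 586 and 695 in the controls and 611, 708, 626 and 527 in the cKO. Pax6, like Sp8, was lowest in control replicate 3 and cKO replicate 4, a likeness that follows from how Pax6 was picked. The distances for Gsx2 (Tmem70, 0.0765) and Sp9 (Zscan2, 0.0248) were larger relative to their own spread of 0.143 and 0.0689 than that for Dlx1. None of the 8 factors was among the 2 nearest genes of another. Dlx5 was at position 21 and Six3 at position 37 for Dlx2. Dlx2 was at position 27 for Dlx6 and 48 for Dlx1. Gsx2, whose mean was below 500, was not a candidate.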

How the data were processed

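Poly(A) RNA from 4 control and 4 cKO LGE was made into directional libraries and read once over 85 bases, per the labels' protocols. Per the submitters' processing notes, the tools were STAR, featureCounts and edgeR with the mm10 build; versions and counting options are not given there. The whole-number columns are a score: values that the authors scaled, adjusted and rounded, and not read counts. Their upper quartiles lay between 1624 and 1635, and 1 direction of variation was nearly absent from the log values (singular value 0.000241, against 0.0433 for the next). Its weights sum to 0 within each group, so SDs and SEs are too small, by an amount that is unknown. A further 2 columns, of group means, were not used. The authors' RPKM columns are these values per length and library sum. The deposited table also holds a log2 fold change by the authors, taken as cKO over control. The authors' adjusted p-value for each gene served as an alternative call.

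Values were taken as log2(value + 1), genes that reached 1 in 4 or more libraries were kept (15698, with 7 left out), and groups were compared with limma 3.58.1 in R 4.3.3 (mean trend, Benjamini-Hochberg over all tested genes, threshold 0.05). The script was tested on simulated data. Ratios between factors were compared by exact permutation of 8 libraries. The labels do not say which embryos shared a litter. Named genes were the 8 factors, the non-coding transcripts of the Dlx pairs, Isl1 and called neighbours (at most 3 per side). They also included called list genes of smallest p (at most 4 a list) and the 2 nearest genes of each factor. Some list genes that are not about the factors are left out. Six3os1, Hat1, Itga6, Sdhaf3, Gsx1, Gad1, Gad2, Penk, Sp3, Sp4, Drd1, Ebf1, Eya1 and Sfxn1 were chosen after their values were seen. The members and lists were chosen with earlier results of these data known. Coordinates and shared exonic bases are from GENCODE (GRCm38), whose exons need not be those that were counted. Alternatives were other pseudocounts (0.5, 5), filters, scalings, columns and fits, and each library left out.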

Additional observations from a re-analysis of the deposited data

How the results depend on the processing

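Dlx1, Dlx2 and Dlx5 rose in every alternative fit run, and 3 to 5 of the 8 factors rose in each, with none fallen; the changes were in the calls of Dlx6 and Six3 given above. The number of genes called, 1045, moved to 608 without control replicate 3 and cKO replicate 4. Leaving out 1 library gave between 658 genes (without control replicate 4) and 959. The replicate block gave 1199 genes, and charging the missing direction of variation to the model gave 749. The same-numbered libraries correlated between groups at 0.41, -0.17, -0.49 and -0.77 in their deviations over 5711 genes, and 1 of 4 controls correlated best with its own number. These are adjusted values that lack 1 direction of variation, so the correlations cannot tell whether the numbers pair libraries. With the replicate block, the differences of the 4 ratios are the same by construction, and only the p-values change. Those come from exact sign flips of the same-numbered pairs and cannot be below 0.125. Leaving out 1 library, a ratio cannot have a p below 0.0571. Among genes with differences near 0, leaving out 1 library gave log2 fold changes from -0.0546 to 0.133 for Penk (also -0.0250 and -0.0280), from -0.00918 to 0.0964 for Six3os1 (also -0.00218) and from -0.00896 to 0.133 for Itga6, whose signs reversed. The cause was not tested. The progenitor list, with none risen, had 1 riser without control replicate 3 and cKO replicate 4, the libraries lowest in pallial markers, which for the gene lists were left out after seeing the data. Depth is unknown, so precision rests on the 4 libraries per group.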

Other observations

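Within the controls, the same libraries gave the extremes of the adjusted values of 6 of the 8 factors. Control replicate 1 was lowest and control replicate 3 highest in Dlx1, Dlx2, Dlx5, Dlx6, Sp9 and Six3, and Sp8 had them the other way round, with 1423 in replicate 1 and 1134 in replicate 3. Control replicate 3 is also the library lowest in pallial markers. Control replicate 1 had the smallest library sum (23732455). In RPKM it was not the lowest control for Dlx5, at 55.6 against 55.3 in control replicate 4. In the cKO no library was the lowest in more than 3 of the 8 factors or the highest in more than 4. No test was made of this order.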
